A study of Homo sapiens with 8 samples.

Results

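The mitochondrial chromosome carried 4 peaks in the NAT10-knockout list and 18 peaks in the SiHa list of an N4-acetylcytidine (ac4C) immunoprecipitation experiment. Its members were all peaks on chromosome MT of both lists, 4 of 4557 knockout peaks and 18 of 12924 SiHa peaks, grouped by the Ensembl identifier that each peak carries. They fell in 14 mitochondrial genes: 12 of the 13 protein genes and both ribosomal RNA genes. The 14 genes stand among 9046 gene identifiers in both lists together. The label of messenger RNAs thus describes 14 of the SiHa peaks and all 4 knockout peaks, while another 4 SiHa peaks lay in ribosomal RNA.

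The study used SiHa, a human cervical carcinoma line that carries papillomavirus DNA, and NAT10-knockout cells of the same line. RNA bound by an anti-ac4C antibody and input RNA were sequenced from each, with 2 libraries in each of 4 groups: knockout immunoprecipitate, knockout input, SiHa immunoprecipitate and SiHa input. How NAT10 was disrupted, and whether the knockout is 1 clone, is not given in the labels. Each population has 1 deposited peak list, and the list whose name bears an added K was read as the knockout list, which no label states in words.

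The acetyltransferase NAT10 makes ac4C by acetylating cytidines of RNA. Human mitochondrial DNA is transcribed along both strands into long precursors, which are cut, mostly at the tRNAs, into ribosomal RNAs, tRNAs and messenger RNAs. The messenger RNAs encode core subunits of the respiratory chain complexes I, III and IV and of the ATP synthase, complex V, and they begin and end with few or no untranslated bases. They are among the most abundant polyadenylated RNAs of many cells, and copies of mitochondrial DNA inserted in the nuclear genome resemble them closely.

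The lists hold no read counts and no values of single libraries, so depth is unknown and every difference below stands without a replicate error. A peak list also gives no transcript level, so loss of ac4C, loss of a transcript and a change in depth or in calling cannot be told apart. The p-values, false discovery rates and folds per peak are the authors' own. Intervals are 95% exact binomial (Clopper-Pearson) intervals and cover counting error only. The NAT10 gene itself (ENSG00000135372, chromosome 11) had 0 knockout peaks and 1 SiHa peak, with 359 bases and a deposited p of 5e-37. The same pattern held for 73% of all genes with a SiHa peak, which had no knockout peak. Of 9 epithelial marker genes, 2 had a knockout peak (KRT18 and KRT19) and 3 a SiHa peak (KRT19, KRT5 and EPCAM). Of 6 markers of other cells, 5 had a knockout peak (HBB, ALB, COL1A2, PECAM1 and PTPRC) and 2 a SiHa peak (HBB and ALB). A marker whose peaks received no unique name counts here as having none, so these counts are lower limits and name no cell type. The part of these markers in the mitochondrial results was not tested.

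The knockout list gave mitochondrial peaks in 3 genes, MT-ND1, MT-ND2 and MT-CO1, and the SiHa list in 14. Mitochondrial peaks made up 0.0878% of the knockout list (0.0239 to 0.225%) and 0.139% of the SiHa list (0.0826 to 0.220%), and these intervals overlap. Their summed width was 688 bases in the knockout list and 10759 bases in the SiHa list, so the knockout figure was 6.39% of the SiHa figure. On the nuclear chromosomes the corresponding sums were 801290 and 3227026 bases, and the knockout figure was 24.8% of the SiHa figure. The ratio of peak numbers differed less, with 4.5 SiHa peaks for each knockout peak on the mitochondrial chromosome and 2.83 on the nuclear ones. The larger gap in bases came with wide mitochondrial SiHa peaks: the median width was 165 bases in the knockout list and 545 bases in the SiHa list on the mitochondrial chromosome, against 180 and 181 bases on the nuclear chromosomes.

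Of the 14 mitochondrial genes with a SiHa peak, 11 had no knockout peak (78.6%, 49.2 to 95.3%), where 73% of all genes with a SiHa peak had none. The mitochondrial share was thus near that of all genes. Of the 3 mitochondrial genes with a knockout peak 0 lacked a SiHa peak, against 1755 of 3723 nuclear genes (47.1%), and 3 genes are too few to read a difference from this. Among genes with at least 1 SiHa p listed at 0, 8 of 11 mitochondrial genes (72.7%, 39.0 to 94.0%) and 141 of 270 nuclear genes (52.2%, 46.1 to 58.3%) had no knockout peak.

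**Figure D1:**
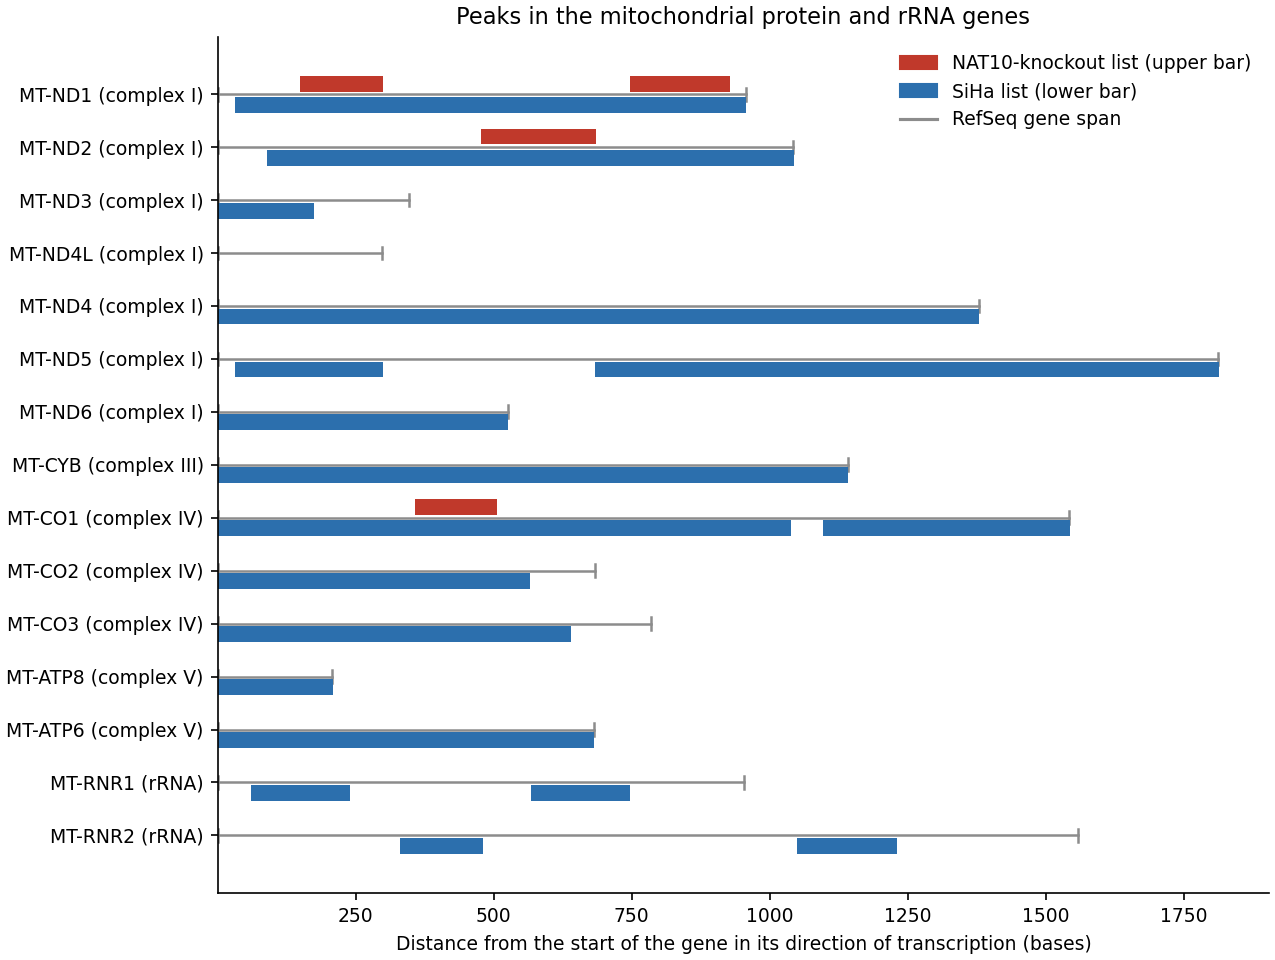
Position of every peak in the 13 mitochondrial protein genes and the 2 ribosomal RNA genes, as bases from the start of the gene in its direction of transcription, with knockout peaks above and SiHa peaks below the line that marks the RefSeq gene span. The 4 knockout peaks lie in MT-ND1, MT-ND2 and MT-CO1, each above a SiHa peak, and 5 SiHa peaks run the whole length of their gene.

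Complex I, the NADH dehydrogenase that feeds electrons into the chain, has 7 mitochondrially encoded subunits. Knockout peaks lay in 2 of them and SiHa peaks in 6. The knockout peaks covered 8.48% of the bases of these genes and the SiHa peaks 84.2%.

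MT-ND1 (ENSG00000198888, GRCh38 chromosome MT, 3307 to 4262) encodes a core membrane subunit and was the only mitochondrial gene with more peaks in the knockout list than in the SiHa list. Its knockout peaks lay at 3456 to 3605, with 150 bases, a deposited fold of 1.99 and a p of 2e-54, and at 4053 to 4232, with 180 bases, a fold of 1.3 and a p of 1e-153. Its SiHa peak ran from 3337 to 4262, or 926 bases and 96.9% of the gene, with a p listed at 0. Both knockout peaks lay wholly inside this SiHa peak, so the larger number does not stand for more of the transcript: the knockout bases were 35.6% of the SiHa bases, the highest such share among the mitochondrial genes.

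MT-ND2 (ENSG00000198763, 4470 to 5511), another membrane subunit, held the strongest mitochondrial knockout peak by both fold and p. That peak spanned 209 bases at 4946 to 5154, with a fold of 2.45, a p listed at 0 and a deposited −log10 p of 1470. The SiHa peak spanned 953 bases at 4559 to 5511, with a p listed at 0, and left out only the 89 bases at the start of the gene. The knockout peak lay inside it and had 21.9% of its bases. Since the knockout list gives a finite −log10 p for a peak whose p is listed at 0, such zeros stand for values too small for the number format. The SiHa list gives no such column, and its peaks at 0 have no order among themselves.

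MT-ND3, MT-ND4, MT-ND5 and MT-ND6, also membrane subunits of complex I, had SiHa peaks and no knockout peak. MT-ND4 (ENSG00000198886, 10760 to 12137) was covered from its first to its last base by 1 SiHa peak of 1378 bases, the widest on the mitochondrial chromosome. Only 22 peaks of the whole SiHa list were wider. MT-ND5 (ENSG00000198786, 12337 to 14148) had a narrow SiHa peak of 268 bases near its start, with a p of 1e-191, and a wide one of 1129 bases that reached its end, with a p listed at 0. A gap of 385 bases separated them.

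MT-ND3 (ENSG00000198840, 10059 to 10404) had the weakest and narrowest SiHa peak among the protein genes, 174 bases from the gene's first base with a p of 6.3e-46. It covered 50.3% of the gene. MT-ND6 (ENSG00000198695, 14149 to 14673) is the protein gene encoded on the opposite strand to the others. Its SiHa peak, 525 bases on the minus strand with a p listed at 0, matched the gene span at both ends and was the only mitochondrial peak of either list on that strand. It borders the wide peak of MT-ND5, which lies on the plus strand, and shares no base with it. MT-ND4L, the seventh subunit gene (10470 to 10766), had no peak of its own in either list, and only the 7 bases that it shares with MT-ND4 lay under a SiHa peak.

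Complex III, which passes electrons to cytochrome c, has 1 mitochondrially encoded subunit, cytochrome b. MT-CYB (ENSG00000198727, 14747 to 15887) had no knockout peak and 1 SiHa peak of 1141 bases, equal to the gene span, with a p listed at 0. In the SiHa list 46 peaks were wider.

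Complex IV, cytochrome c oxidase, reduces oxygen and has 3 mitochondrially encoded subunits. Knockout peaks covered 4.95% and SiHa peaks 89.3% of their bases. MT-CO1 (ENSG00000198804, 5904 to 7445), the catalytic subunit, was the one with a knockout peak. That peak had 149 bases at 6260 to 6408, a p of 1e-152 and a fold of 1.2, the lowest of the 4. The SiHa peaks of MT-CO1 spanned 1038 bases from the gene's first base and 446 bases to its last, both with a p listed at 0, and left a gap of 58 bases. The knockout peak lay inside the wider of these, and it had 149 bases against 1484 SiHa bases in the gene, the lowest share among the 3 genes with peaks in both lists.

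MT-CO2 (ENSG00000198712, 7586 to 8269), the subunit that accepts electrons from cytochrome c, had no knockout peak. It had 1 SiHa peak of 565 bases from the gene's first base, with a p listed at 0, that stopped 119 bases before the gene's end. MT-CO3 (ENSG00000198938, 9207 to 9990), a further core subunit, likewise had no knockout peak and 1 SiHa peak of 639 bases from its first base, with a p listed at 0, that stopped 145 bases before the end. All 4 SiHa peaks in the mitochondrially encoded subunits of complex IV thus had a p listed at 0.

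Complex V takes 2 mitochondrially encoded subunits of its membrane part, where protons pass, from overlapping genes. MT-ATP8 (ENSG00000228253, 8366 to 8572) and MT-ATP6 (ENSG00000198899, 8527 to 9207) had no knockout peak, and each had 1 SiHa peak equal to its gene span, of 207 and 681 bases, with a p listed at 0. The genes share 46 bases, and so do their peaks, so reads from this stretch cannot be assigned to 1 of them by position. The peaks of MT-ATP6 and MT-CO3 shared 1 base. With shared bases counted once, the mitochondrial SiHa peaks covered 10712 bases.

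Boundaries of messenger RNA peaks often coincided with those of the genes in the SiHa list, and never in the knockout list. Of 14 SiHa peaks in protein genes, 9 began at the first base of the gene, 9 ended at its last base and 5 did both. Among the 4 knockout peaks, 0 began or ended at a gene boundary, and they spanned 9.66 to 20.1% of their gene. Matches to gene boundaries were not counted over all peaks of either list, so they are not shown to be particular to mitochondrial peaks. How the caller bounds a peak is not given in the sources used here, and its part in these matches was not tested. Over the 13 protein genes together, knockout peaks covered 6.04% and SiHa peaks 88.4% of the bases.

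The ribosomal RNAs differed from the messenger RNAs in the SiHa list in both width and deposited p. MT-RNR1 (ENSG00000211459, 648 to 1601), the RNA of the small mitochondrial ribosomal subunit, had no knockout peak. Its SiHa peaks had 179 bases at 708 to 886, with a p of 2.9e-05, and 180 bases at 1214 to 1393, with a p of 1.5e-09. MT-RNR2 (ENSG00000210082, 1671 to 3229), the RNA of the large subunit, also had no knockout peak. Its SiHa peaks had 150 bases at 2001 to 2150, with a p of 8.1e-05, and 180 bases at 2720 to 2899, with a p of 3.6e-07. The 4 peaks covered 27.4% of both genes together, and each had a larger p than every mitochondrial messenger RNA peak of the same list. No peak was assigned to any of the 22 mitochondrial tRNA genes in either list. The longest of these has 75 bases, and the shortest peak anywhere had 107 bases in the knockout list and 110 bases in the SiHa list. The libraries were stranded mRNA libraries, per the labels' protocols. The part of this preparation in the differences between ribosomal RNAs, tRNAs and messenger RNAs was not tested.

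Within the SiHa list, many mitochondrial peaks were wide and had very small p-values. A p listed at 0 belonged to 12 of 18 mitochondrial peaks (66.7%, 41.0 to 86.7%), all in protein genes, where 2.39% of all SiHa peaks had one. In the knockout list this held for 1 of 4 mitochondrial peaks, where 0.505% of all knockout peaks had one. Widths above 500 bases were found in 10 of 18 mitochondrial SiHa peaks (55.6%), against 6.67% of all SiHa peaks, and in 0 of 4 mitochondrial knockout peaks. All mitochondrial peaks were single blocks, as were 68.7% of nuclear knockout peaks and 74.8% of nuclear SiHa peaks. The mitochondrial messenger RNAs have no introns. Among SiHa peaks with a p listed at 0 alone, the median width was 803.5 bases for the 12 mitochondrial peaks (range 207 to 1378) and 541 bases for 297 nuclear peaks (range 151 to 2632), so the ranges overlapped.

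**Figure D2:**
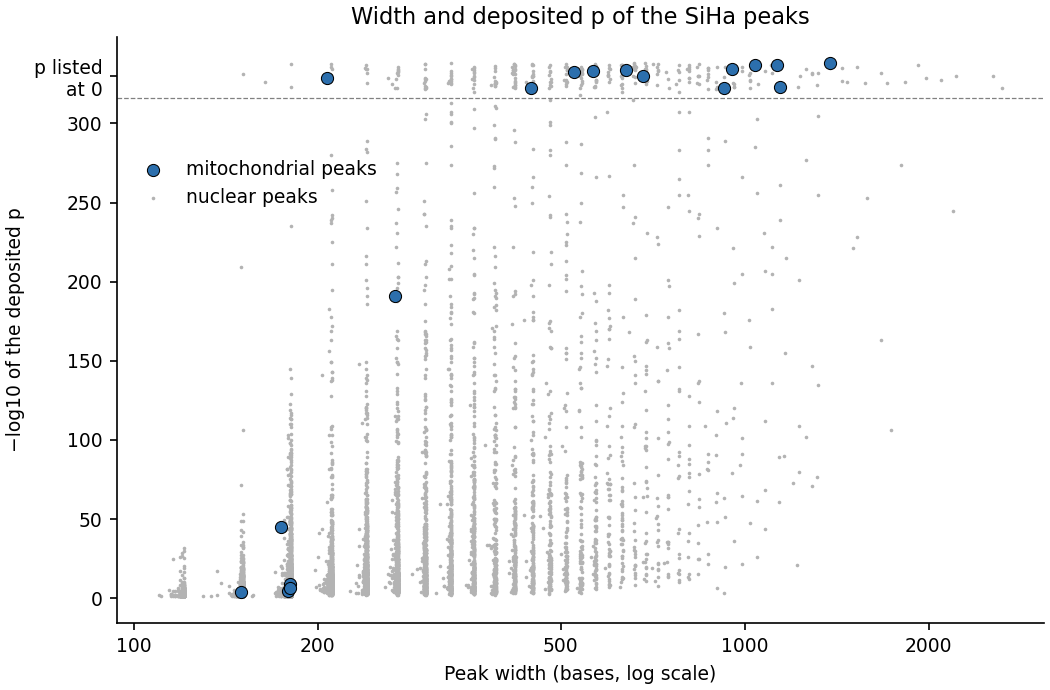
Width in bases (log scale) and −log10 of the deposited p for every SiHa peak, with the 18 mitochondrial peaks in blue and nuclear peaks in grey. Peaks whose p is listed at 0 are drawn above the dashed line with random vertical spread and no order; 12 mitochondrial peaks stand there, and the 4 ribosomal RNA peaks stand at the lower left with widths of 150 to 180 bases.

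Every mitochondrial knockout peak lay inside a mitochondrial SiHa peak. In all, 4 of 4 (39.8 to 100%) shared at least 1 base on the same strand with a SiHa peak, where 19.2% of all knockout peaks did. In the other direction 3 of 18 mitochondrial SiHa peaks (16.7%, 3.58 to 41.4%) were overlapped by a knockout peak, where 6.76% of all SiHa peaks were. Since 3 genes were almost filled by SiHa peaks, a knockout peak anywhere in them would nearly always have met one. Among SiHa peaks with a p listed at 0, 25% of mitochondrial peaks (3 of 12) and 25.9% of nuclear peaks (77 of 297) were overlapped. When an overlap had to take in 50% of the bases of both peaks, 0 of the 18 mitochondrial SiHa peaks were overlapped, against 3.15% of all SiHa peaks. The knockout peaks were 14.4 to 35.6% as wide, summed per SiHa peak, as the SiHa peaks that held them.

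Mitochondrial knockout peaks joined low folds with small p-values. Their folds were 1.2, 1.3, 1.99 and 2.45, with a median of 1.65, where the median of the whole knockout list was 12.8 and the lowest fold 1.07. Counted from the lowest fold among 4557 knockout peaks, MT-CO1 stood at place 4, the MT-ND1 peaks at places 12 and 90, and MT-ND2 at place 161. Counted from the smallest p, MT-ND2 stood at place 11, the MT-ND1 peaks at places 44 and 192, and MT-CO1 at place 45. A fold under 2.5, a limit just above the highest of these 4, was deposited for 3.82% of the knockout list. The list held 219 peaks with −log10 p above 50, of which 4 were mitochondrial and 215 nuclear, and 14 peaks joined such a p with a fold under 2.5. The limit of 50 lies just below the lowest mitochondrial value, 53.7. Since both limits lie just beyond the values of the 4 mitochondrial peaks, that all 4 pass them is no separate result. The fold's reference is not stated, and the SiHa list gives no fold, so folds of mitochondrial messenger RNAs cannot be compared between the populations.

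**Figure D3:**
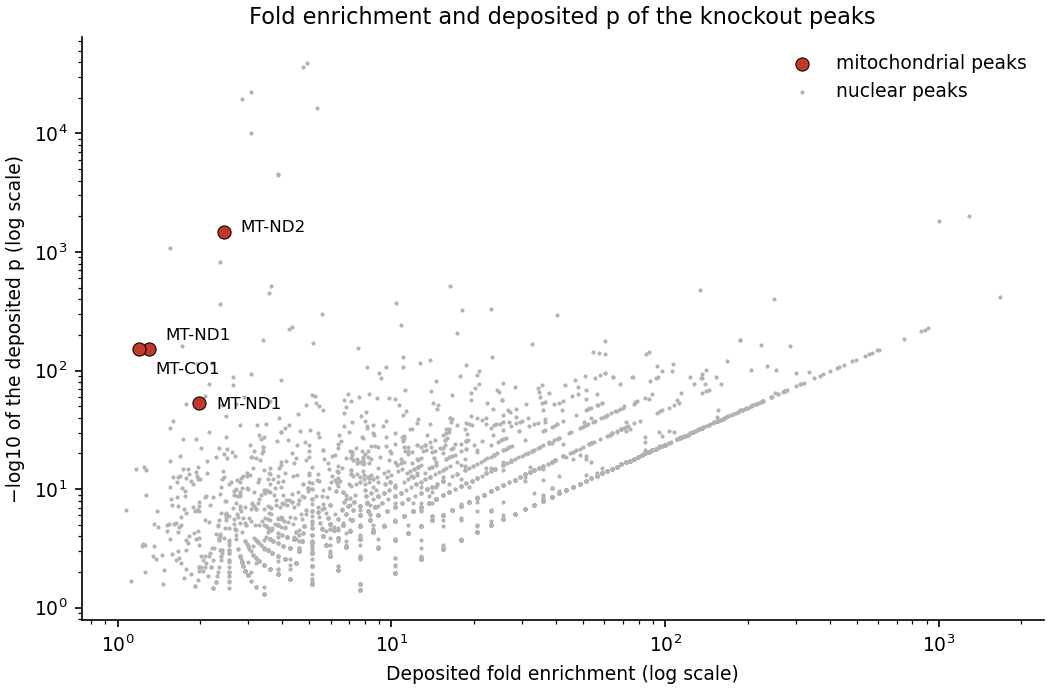
Deposited fold enrichment against −log10 of the deposited p, both on log scales, for every knockout peak, with the 4 mitochondrial peaks in red and nuclear peaks in grey. The mitochondrial peaks stand at the left edge, with folds of 1.2 to 2.45 and −log10 p of 53.7 to 1470.

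The respiratory complexes are built from mitochondrial and nuclear genes, and the nuclear genes were counted through lists. Of 79 nuclear-encoded respiratory chain and ATP synthase genes, of which 78 are in the reference, 6 had a knockout peak and 11 a SiHa peak. Of the 13 mitochondrial protein genes, named by a different rule, 3 and 12 did. A nuclear member whose peaks received no unique name counts here as having none, so the nuclear counts are lower limits. The share of all genes that carry a peak is not known from the lists, so no difference is read from these counts. Of the 11 nuclear genes with a SiHa peak, 10 had no knockout peak (90.9%, 58.7 to 99.8%), where 71.9% of all named genes with a SiHa peak had none.

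Among the nuclear genes of complex I, NDUFV1, which binds the flavin that accepts electrons from NADH, and NDUFB5 had knockout peaks alone. NDUFV3, an accessory subunit, had 2 knockout peaks and 3 SiHa peaks, and NDUFB11 had SiHa peaks alone. In complex II, the flavoprotein SDHA had a peak in the knockout list alone (fold 10.3). Complex III had SiHa peaks alone, in CYC1 (cytochrome c1, p of 1.3e-32), UQCRFS1 (the Rieske iron-sulfur protein), UQCR10 and UQCR11. Among the nuclear genes of complex IV, COX6C was the only one with a named peak, in the SiHa list. In complex V, the catalytic-head subunits ATP5F1A and ATP5F1B were found in the knockout list alone, at folds of 5.98 and 1.24, and ATP5F1C, ATP5PF, ATP5F1D and ATP5MJ had SiHa peaks alone. No nuclear gene of these complexes had a SiHa p listed at 0.

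The mitochondrial ribosome, which translates these messenger RNAs, is built from the 2 mitochondrial ribosomal RNAs and nuclear-encoded proteins. Of 81 such protein genes, 10 had a knockout peak and 37 a SiHa peak. No knockout peak was found in 29 of the 37 (78.4%, 61.8 to 90.2%), a share near the 71.9% of all named genes. In the large subunit, MRPL22 had a knockout peak alone, and MRPL57 (SiHa p of 1e-235), MRPL35, MRPL12, MRPL19 and MRPL15 were in both lists. Knockout and SiHa peaks overlapped in MRPL57 and MRPL19, and did not in MRPL35, MRPL12 and MRPL15. MRPL32 (p of 9.88e-323), MRPL14 (p of 1e-311) and MRPL50 (p of 1e-222) were among 18 genes with SiHa peaks alone. In the small subunit, AURKAIP1 had 2 knockout peaks alone. DAP3 (SiHa p listed at 0), MRPS31 and MRPS27 were in both lists, with overlapping peaks in each. MRPS26, MRPS25 and MRPS23 were among 11 genes with SiHa peaks alone.

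Among 27 genes of mitochondrial transcription and RNA handling, 9 had a knockout peak and 10 a SiHa peak. PDE12, REXO2, the helicase SUPV3L1, the tRNA-end nuclease ELAC2 and FASTK had knockout peaks alone. LRPPRC, which stabilises mitochondrial messenger RNAs, GRSF1, which binds RNA in mitochondrial granules, PNPT1, the mitochondrial polynucleotide phosphorylase, and TBRG4 were in both lists. Their peaks lay at different places in the lists, since no SiHa peak of these genes was overlapped by a knockout peak. TRMT10C, a subunit of the mitochondrial RNase P, TEFM, an elongation factor of the mitochondrial RNA polymerase, and MTERF4 were among 6 genes with SiHa peaks alone, or 60% of the 10 with a SiHa peak (26.2 to 87.8%), where the share of all named genes was 71.9%. Of 20 genes of mitochondrial RNA modification, 4 had a knockout peak and 10 a SiHa peak. GTPBP3 and CDK5RAP1 had knockout peaks alone. The methyltransferases TRMT61B and MRM3 were in both lists, with overlapping peaks in TRMT61B and not in MRM3. The pseudouridine synthase PUS1 and the methyltransferase TRMT5 were among 8 genes with SiHa peaks alone, or 80% of 10 (44.4 to 97.5%). Of 13 genes in the list of translation factors, 2 had a knockout peak, the elongation factor GFM1 and GFM2, which acts in ribosome recycling. SiHa peaks were found in 7, among them the elongation factor TSFM, MTRFR and the inner-membrane insertase OXA1L. All 7 lacked a knockout peak (59.0 to 100%), and the intervals of these 3 lists include the 71.9% of all named genes.

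**Figure D4:**
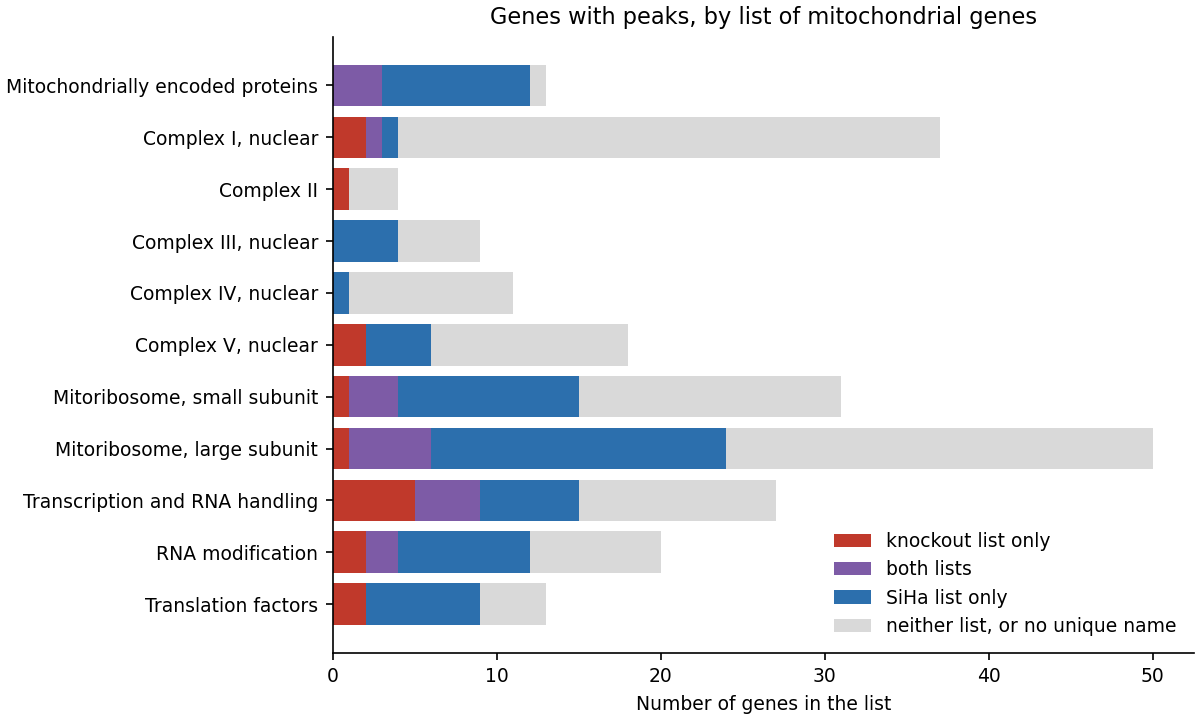
Number of genes with a peak in the knockout list only, in both lists, in the SiHa list only, or in neither (or without a unique name), for the mitochondrially encoded proteins and 10 lists of nuclear genes with mitochondrial products. Of the 13 mitochondrially encoded proteins 12 had a peak, all of them at least in the SiHa list.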

How the data were processed

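Immunoprecipitated and input RNA of NAT10-knockout SiHa cells and SiHa cells was made into stranded mRNA libraries, per the labels' protocols. FastQC 0.11.7 and the GRCh38 (hg38) build appear in the submitters' processing notes. No aligner, peak caller, annotation or way of combining replicates is given in the sources used here. The authors deposited a p-value per peak in both lists and, in the knockout list, log10 of p, log10 of a false discovery rate, and a fold (a ratio whose reference is not stated), per the file headers. Depth is unknown.

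Peaks on unplaced scaffolds (2 in the knockout list, 3 in the SiHa list) and 1 repeated SiHa line were dropped. Widths are summed over blocks. Overlap meant at least 1 shared base in blocks on the same strand. Mitochondrial identifiers were named by the RefSeq span (GRCh38.p14) that held most bases of their peaks. All 14 matched 1 gene each. RefSeq symbols were written in the MT- form of their synonyms. Nuclear identifiers were named when their peaks touched 1 RefSeq span alone, with at least 90% of their bases in it and no competing identifier. Spans known to lie on the other strand were ignored, a choice made after list counts had been seen. Of 9046 identifiers, 7195 (79.5%) were named. Positional names are less certain than annotated ones.

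Every mitochondrial gene with a peak was named. Nuclear list genes were named up to 3 per class and list, by smallest SiHa p or highest knockout fold, and some of those are not printed. Classes of 5 or fewer genes are given in full, an addition made after their values were seen. The members and lists were chosen with earlier results of these data known. No test was run, since each population has 1 list. Overlap, and nuclear naming without strand, were tested on simulated peaks and gave every known answer. The naming by strand used for the nuclear lists and the naming of mitochondrial identifiers were not tested this way. The work used Python 3.11.15 with pandas 2.3.3 and scipy 1.17.1. No mitochondrial sequence was used here, so none is printed.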

Additional observations from a re-analysis of the deposited data

How the results depend on the processing

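Of 20 alternative settings, 19 left a count within 1.5 times of that given above, a share inside its interval, or a median p unchanged at 0. Several of them could hardly move a value. Only 1 line was repeated in the SiHa list and 0 in the knockout list, and the interval of the share, 49.2 to 95.3%, is wide. The exception was the reciprocal overlap of 50%, under which the overlapped mitochondrial SiHa peaks numbered 0 in place of 3, because the knockout peaks are much narrower. The 4 knockout peaks all remained at a false discovery rate of 0.05 or less and at −log10 p above 8. The SiHa peaks numbered 15 at −log10 p above 8 and 14 when the SiHa list was reduced to its 4557 strongest peaks. The share of mitochondrial genes without a knockout peak lay between 75 and 78.6% throughout, while that of all genes lay between 65.4 and 89.3%. Which share was larger depended on the setting. The mitochondrial share was the higher with the reduced SiHa list (75 against 65.4%), as in the main setting. It was the lower at −log10 p above 8 (76.9 against 84.8%). It was also the lower when a gene counted as lost if no SiHa peak of it was overlapped (78.6 against 89.3%). With 12 protein genes alone the mitochondrial share was 75%. This setting and the naming without strand, which gave 8 in place of 11 respiratory genes and 33 in place of 37 ribosomal protein genes with a SiHa peak, were added after the data had been seen. No paired analysis was possible because each population has 1 list with no values per replicate, and for the same reason no library could be left out.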

Other observations

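Nuclear copies of mitochondrial genes also carried peaks in both lists. RefSeq lists 487 pseudogene copies of the mitochondrial protein and ribosomal RNA genes on the nuclear chromosomes. In the knockout list 7 of them held a peak that lay in the copy, and in the SiHa list 4 of them held 6 such peaks. Of these peaks, 0 of 7 knockout peaks and 0 of 6 SiHa peaks were overlapped by a peak of the other list, where 19.2% of all knockout peaks and 6.76% of all SiHa peaks were. Such small numbers show no difference from those shares. RefSeq gives no strand for these copies in the table used, so they were matched by position alone.

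The 7 knockout peaks lay in copies on chromosomes 1, 2, 5, 6, 13 and 15, with 147 to 267 bases and folds of 4.27 to 94.9. MTND4P11, MTND4P23, MTND4P12 and MTND4P13 are copies of MT-ND4, and the others were MTCYBP35, MTND6P18 and MTND5P32. MT-ND4, MT-CYB, MT-ND6 and MT-ND5 themselves had no knockout peak. MTND5P32 had the highest fold, 94.9, with a deposited p of 5e-31, and MTCYBP35 had a fold of 4.99 with a p of 2e-24.

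The 6 SiHa peaks lay close together on chromosome 1, on the plus strand. MTND2P28, a copy of MT-ND2, had a peak of 448 bases at 629640 to 630087 with a deposited p of 1e-250, and another of 150 bases with a p of 0.00058. MTCO1P12, a copy of MT-CO1, had peaks of 416 and 179 bases with p of 4.5e-06 and 3.2e-05. MTATP6P1 had a peak of 356 bases with a p of 2.5e-89, and MTCO3P12 a peak of 231 bases with a p of 0.00037. The mitochondrial genes that these copies resemble all had SiHa peaks with a p listed at 0. Whether reads were shared between gene and copy was not tested.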
